A study of Equus caballus with 4 samples.

Results

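The myosin light chains are small subunits of the myosin motor, and 10 of their genes were followed in equine satellite cells (ESC) that were differentiating and were given HMB, short for *β*-hydroxy-*β*-methylbutyrate, which the body makes from leucine. The genes were *MYL1*, *MYL2*, *MYL3*, *MYL4*, *MYLPF*, *MYL5*, *MYL6*, *MYL6B*, *MYL9* and *MYL12A*, out of 14595 gene symbols with a probe on the array. The annotation of the scanner files named 7 of them by symbol. *MYLPF* and *MYL9* were found there under gene numbers, which the RefSeq gene table pairs with *MYL11* (another symbol of *MYLPF*) and *MYL9*. *MYL12A* was found through the description of its probe. The match of these 3 genes was chosen after seeing the data.

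ESC are the muscle precursor cells of the horse, here isolated from *m. semitendinosus* of 6 colts aged 6 months, after preplating to reduce the number of fibroblasts. Cells differentiated for 2 days, and then HMB was added to one plate for 24 h while the control plate stayed in differentiation medium, so all cells were collected on the 3rd day of differentiation. The dose is given as 50 µM in the methods section and as 50 µg in the sample labels. HMB-treated cells (Cy5, the red dye) and control cells (Cy3, the green dye) were hybridised together on each of 4 arrays of 60-base probes on 1 slide (*n* 4). The dyes were never exchanged, so a preference of a probe for one dye and an effect of HMB cannot be told apart. Cells of each culture flask went to both plates, but the sources used here do not match colts to arrays or say whether the 2 samples on an array shared a donor. The number of arrays limits the precision. The median raw signal of a spot was 3.16 to 3.82 times its local background in the control channel and 4.68 to 5.85 times in the HMB channel.

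A conventional myosin has a pair of heavy chains, each with a motor head, and each head carries 1 essential and 1 regulatory light chain on its lever arm. The essential, or alkali, light chains of striated muscle are encoded by *MYL1* (fast skeletal), *MYL3* (slow skeletal and ventricular) and *MYL4* (embryonic and atrial). The regulatory, phosphorylatable light chains of striated muscle include those of *MYLPF* (fast skeletal) and *MYL2* (slow skeletal and ventricular). Smooth muscle and non-muscle myosins use the essential light chain of *MYL6* and the regulatory light chains of *MYL9* and *MYL12A*, whose phosphorylation by myosin light chain kinase starts contraction in smooth muscle. Differentiating myoblasts gain the sarcomeric chains while they keep the non-muscle ones.

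With the lowess-normalised ratios of the scanner files, the 5 light chains of striated muscle fell in HMB-treated *v*. control cells. The 3 of smooth and non-muscle myosin did not pass the threshold with these ratios. Without lowess, however, *MYLPF* turned to higher, *MYL4* lost its call and *MYL6* was called higher. With normexp background correction and loess, *MYL12A* was called lower (-0.27) and *MYL6* higher (0.34). The brightest 1% of tested probes, those of *MYLPF* and *MYL6* among them, had a median of 1.20 without lowess and 0.41 with normexp and loess. Of the 10 genes, 9 had a probe bright enough to be tested, and 6 of these were lower and 0 higher at a Benjamini and Hochberg adjusted *P* of 0.05 with limma, a linear model fitted to all tested probes. A test of each probe on its own 4 ratios called 0 lower after adjustment, beside 1.54% of all tested probes. Limma with no filter on dim probes called 2 lower, beside 4.81% of all probes. At an unadjusted *P* of 0.05, limma had 7 lower and 0 higher, and the test of each probe on its own had 6 and 0. The share of all probes at that unadjusted *P* was not taken, so whether these counts are unusual cannot be said. Over all 27384 tested probes, limma at the adjusted *P* of 0.05 called 11.6% lower and 11.2% higher, together 22.8%. The sixth light chain gene called lower was *MYL6B*, and *MYL5* was not tested. Without lowess stands here for normexp background correction and a simple centring of each array on its median.

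The probes themselves show how close the isoforms are, and 3 pairs of alike probes are printed here because a transcript of one gene could also bind the probe of the other. Each is given 5′ to 3′, and capitals mark bases shared by the pair in the best alignment without gaps.
MYL1: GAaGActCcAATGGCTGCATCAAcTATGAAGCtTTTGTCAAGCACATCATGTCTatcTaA
MYL4: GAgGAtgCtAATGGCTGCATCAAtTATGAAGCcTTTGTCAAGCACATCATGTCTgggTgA
MYL2: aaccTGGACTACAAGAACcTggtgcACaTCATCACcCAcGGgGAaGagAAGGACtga
MYLPF: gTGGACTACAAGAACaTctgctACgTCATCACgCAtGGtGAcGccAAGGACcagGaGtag
MYL3: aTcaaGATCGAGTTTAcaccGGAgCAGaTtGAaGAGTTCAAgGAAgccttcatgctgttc
MYL6B: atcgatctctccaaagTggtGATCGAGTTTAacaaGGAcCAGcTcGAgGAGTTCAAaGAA

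The probes of *MYL1* and *MYL4* share 50 of 60 bases (83.3%). Those of *MYL3* and *MYL6B* share 32 of 45 aligned bases (71.1%), and those of *MYL2* and *MYLPF* share 39 of 57 (68.4%), of which 2 lie opposite the last 3 bases of the *MYL2* probe, which follow its stop codon and are not printed. The probe of *MYL7*, too dim to be tested, shares 39 of 53 aligned bases (73.6%) with that of *MYL2*. The median over 55 pairs among the probes of the 10 genes and of *MYL7* was 40.5%. Each of the probes of *MYL1*, *MYL4* and *MYLPF* ends with a stop codon, at base 60 of 60, and the stop codon in that of *MYL2* ends at base 57, where the printed sequence stops. These 4 probes therefore lie at the end of the coding sequence. The signal of *MYL1* and of *MYL4* is uncertain to the extent that their transcripts bind both probes, which was not tested.

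Positions are those of the array files on the EquCab1 build. *MYL1* (transcript ENSECAT00000006002) lies at chr6:1026937-1029285 and *MYL4* (ENSECAT00000022483) at chr11:16047778-16048383, both on the minus strand. *MYL3* (ENSECAT00000018557) lies at chr16:39990724-39993217 on the plus strand. The 60 bases of each of these 3 probes span 606 to 2494 bases of the genome, as a probe across an intron does. *MYL2* (ENSECAT00000008314) lies at chr8:20923471-20923530 on the plus strand, and *MYLPF* (ENSECAT00000018609) at chr13:6652175-6652234 on the minus strand. *MYL9* (ENSECAT00000007656) lies at chr22:27127145-27127204 and *MYL12A* (ENSECAT00000009798) at chr8:36799576-36799635, both on the plus strand. *MYL6* (ENSECAT00000019543), *MYL6B* (ENSECAT00000019261) and *MYL5* (ENSECAT00000015468) were on sequence not assigned to a chromosome. *MYL6* has 5 probes, each shifted by 1 base from the next, so they are not independent measurements.

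*MYL3*, the slow and ventricular essential light chain, had the most negative mean of the 10 genes. Its processed signal, which is background-subtracted and dye-normalised, was 845, 775, 820 and 735 in control cells on arrays 1 to 4, and 526, 398, 367 and 293 in HMB-treated cells. The channels did not overlap. The log2 ratios of HMB-treated to control cells were -0.68, -0.96, -1.16 and -1.33, with a mean of -1.03 ± 0.28 (SD, *n* 4), or 2.05-fold lower (limma, adjusted *P* 0.00322, lower on 4 of 4 arrays). Only 1.02% of the tested probes had a lower mean ratio.

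*MYL2*, the slow regulatory light chain, had a processed signal of 35829, 35439, 38059 and 44200 in control cells and of 24772, 19631, 18576 and 19507 in HMB-treated cells. No HMB value reached the lowest control value. The log2 ratios were -0.53, -0.85, -1.03 and -1.18, with a mean of -0.90 ± 0.28 (SD, *n* 4). *MYL2* was thus 1.87-fold lower (limma, adjusted *P* 0.00463, lower on 4 of 4 arrays). Its mean without lowess was -0.30, still called lower.

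*MYL4*, the embryonic essential light chain, had a processed signal of 40779, 44255, 49268 and 57074 in control cells and of 31213, 24294, 23854 and 23459 in HMB-treated cells. Again the channels did not overlap, and array 1 had the highest HMB value with the lowest control value. On the log2 scale the ratios were -0.39, -0.87, -1.05 and -1.28, with a mean of -0.90 ± 0.38 (SD, *n* 4), or 1.86-fold lower (limma, adjusted *P* 0.00960, lower on 4 of 4 arrays). Without lowess the mean was -0.18 and *MYL4* was not called.

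*MYLPF*, the fast regulatory light chain, was among the brightest 1% of tested probes. Its processed signal was 147444, 141892, 173687 and 177222 in control cells and 110576, 84435, 90030 and 86064 in HMB-treated cells, again without overlap, and no spot was marked as saturated. This gave log2 ratios of -0.42, -0.75, -0.95 and -1.04, with a mean of -0.79 ± 0.28 (SD, *n* 4). *MYLPF* was thus 1.73-fold lower (limma, adjusted *P* 0.00669, lower on 4 of 4 arrays). However, its mean was -0.44 with normexp and loess and turned to 0.37, called higher, without lowess. The median of the brightest 1% was 0.11 with lowess, 0.41 with normexp and loess and 1.20 without lowess.

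*MYL1*, the fast essential light chain, had the least negative mean of the striated muscle genes with lowess, a place that *MYLPF* took with normexp and loess (-0.44 against -0.70). The processed signal was 13620, 14071, 15577 and 12670 in control cells and 11324, 9465, 9289 and 6159 in HMB-treated cells. The highest HMB value lay below the lowest control value, by a narrow margin. HMB-treated over control, the log2 ratios came to -0.27, -0.57, -0.75 and -1.04, with a mean of -0.66 ± 0.32 (SD, *n* 4), or 1.58-fold lower (limma, adjusted *P* 0.0161, lower on 4 of 4 arrays). Without array 3 the mean was -0.63 and *MYL1* was not called. Its mean without lowess was -0.27, still called lower.

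The means of these 5 genes spanned 0.38 on the log2 scale, from -1.03 to -0.66. Their 95% intervals overlapped, with -1.30 to -0.77 for *MYL3* and -0.96 to -0.36 for *MYL1*, but the spread between arrays was largely shared by the genes. Within an array *MYL3* had the lowest ratio of the 5 on 4 of 4 arrays, and it differed from *MYL1* by -0.42, -0.39, -0.41 and -0.29 (mean difference -0.38 ± 0.06, SD, *n* 4). This order of *MYL3* and *MYL1* was also found on 4 of 4 arrays with normexp and loess (-0.29 ± 0.06) and without lowess (-0.54 ± 0.09). The difference of *MYL2* from *MYL4* was -0.00 ± 0.10 with lowess, -0.06 ± 0.10 with normexp and loess and -0.12 ± 0.08 without lowess, where it was below 0 on 4 of 4 arrays. *MYLPF* differed from *MYL1* by -0.13 ± 0.09 with lowess but by 0.26 ± 0.08 with normexp and loess, so its place in the order depended on the normalisation. These differences are descriptions and have no test.

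*MYL6B*, an alkali light chain found in slow muscle and also in non-muscle tissue, gave log2 ratios of -0.21, -0.55, -0.69 and -0.86. The mean was -0.58 ± 0.28 (SD, *n* 4), or 1.49-fold lower (limma, adjusted *P* 0.0166, lower on 4 of 4 arrays). It was not called without array 2 (-0.59) or without array 3 (-0.54). Its mean without lowess was -0.29, still called lower. Its processed signal was 5536 to 7239 in control cells and 3772 to 4844 in HMB-treated cells. *MYL5*, a regulatory light chain, was not well above background in either channel on any array, and no ratio is given for it.

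**Figure D1:**
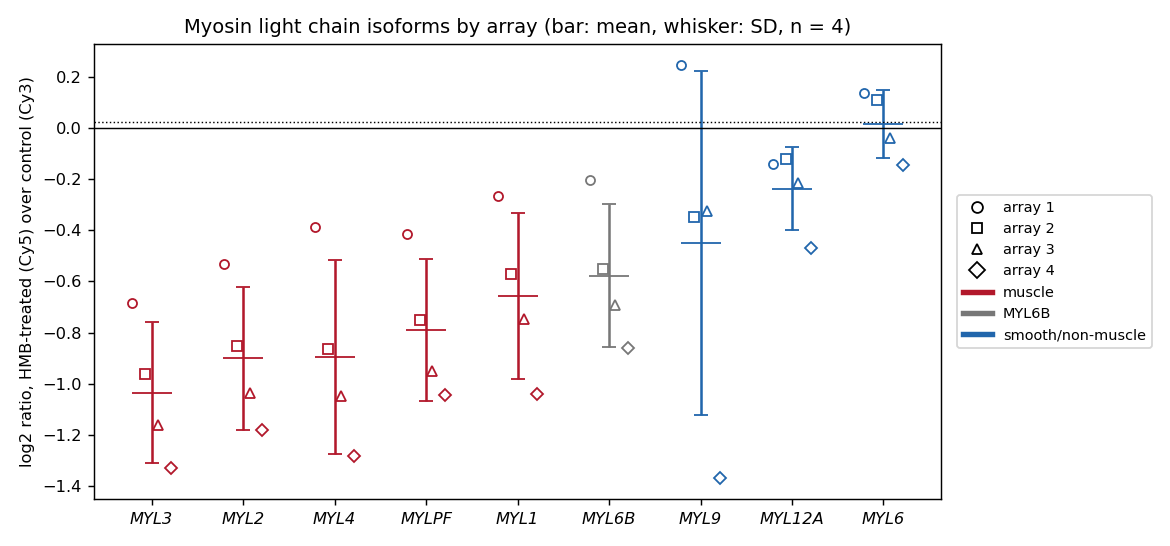
Log2 ratio of HMB-treated (Cy5) over control (Cy3) cells for the 9 tested light chain genes, with a symbol for each of the 4 arrays, a bar at the mean and whiskers of 1 SD. The solid line is at 0 and the dotted line at the median of all tested probes (0.02); the 5 striated muscle genes lie between -1.33 and -0.27 on every array, and *MYL6* lies between -0.15 and 0.13, with lowess; without it *MYLPF* and *MYL6* are higher.

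*MYL6*, the essential light chain of smooth muscle and non-muscle myosin, was close to a ratio of 1 with lowess. It was called higher with normexp and loess (0.34) and without lowess (1.15), where the brightest 1% of tested probes had medians of 0.41 and 1.20. Its processed signal was 112164, 98675, 115471 and 140398 in control cells and 123139, 106347, 112263 and 126880 in HMB-treated cells, so the channels overlapped. The 4 log2 ratios were 0.13, 0.11, -0.04 and -0.15, with a mean of 0.01 ± 0.13 (SD, *n* 4; limma, adjusted *P* 0.904). The 95% interval of -0.16 to 0.19 leaves room for a fall of up to 1.12-fold. The means of its 5 overlapping probes ran from -0.00 to 0.10 with lowess, and none passed the threshold.

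*MYL12A*, a non-muscle regulatory light chain, had a negative ratio on 4 of 4 arrays with lowess, without passing the threshold. It was called lower with normexp and loess (-0.27) and had a mean of 0.15, not called, without lowess. In log2 ratios this was -0.14, -0.12, -0.22 and -0.47, with a mean of -0.24 ± 0.16 (SD, *n* 4; limma, adjusted *P* 0.0755). Its processed signal was 11162 to 13981 in control cells and 8054 to 12671 in HMB-treated cells.

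*MYL9*, the smooth muscle regulatory light chain, varied most between arrays. The processed signal was 11245, 11963, 9874 and 12585 in control cells and 13341, 9404, 7884 and 4873 in HMB-treated cells. Array 1 was higher with HMB, and array 4 lay outside the range of the other 3. Array by array, the log2 ratios were 0.25, -0.35, -0.32 and -1.37, with a mean of -0.45 ± 0.67 (SD, *n* 4; limma, adjusted *P* 0.216). Its 95% interval of -1.02 to 0.12 includes the means of 4 of the 5 striated muscle genes, so a fall as large as theirs is not excluded for *MYL9*. Without array 4 the mean was -0.14, without array 1 it was -0.68, and without lowess it was -0.10.

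**Figure D2:**
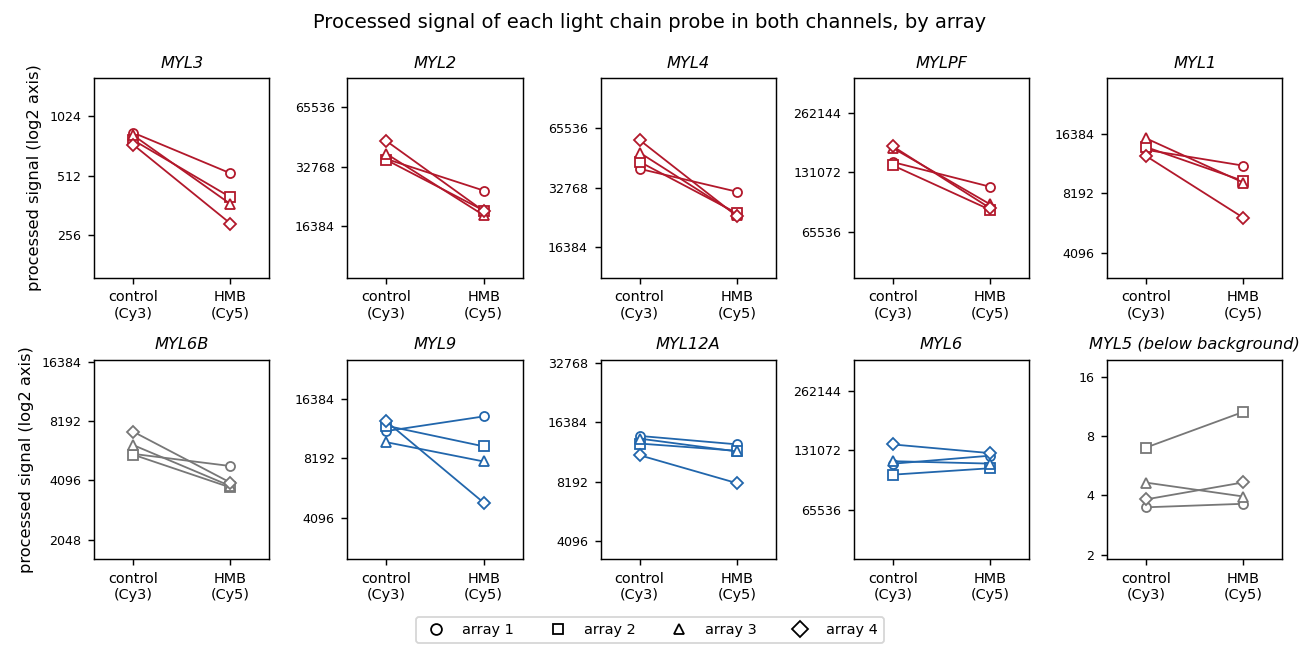
Processed signal of the probe of each light chain gene in control (Cy3) and HMB-treated (Cy5) cells, with a line for each of the 4 arrays on a log2 axis that spans the same fold in every panel. Lines of the striated muscle genes and of *MYL6B* slope down on all 4 arrays, those of *MYL6* are nearly level (both by lowess-normalised signal, without which *MYLPF* is higher), and *MYL5* was not well above background.

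The median log2 ratio of the 5 striated muscle genes was -0.42, -0.85, -1.03 and -1.18 on arrays 1 to 4, and that of the 3 smooth and non-muscle genes was 0.13, -0.12, -0.22 and -0.47. The muscle minus non-muscle difference within an array was -0.70 ± 0.11 (SD, *n* 4), with values of -0.55, -0.73, -0.82 and -0.71. The difference is a description and has no test. With lowess, every smooth and non-muscle gene had a higher ratio than every striated muscle gene on arrays 1 to 3, with *MYL9* the exception on array 4. This order was lost with normexp and loess, where *MYL9* lay below *MYLPF* on array 2, and without lowess, where the mean of *MYLPF* (0.37) lay above those of *MYL12A* (0.15) and *MYL9* (-0.10). In both groups the median was highest on array 1 and lowest on array 4. Over the probes called lower, the median was likewise -0.42 on array 1 and -0.64 on array 4, and the SD of all tested probes was 0.35 on array 1 and 0.48 on array 4.

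The ratio of a bright probe depended on the dye normalisation. Without lowess, the median over the tested probes moved from 0.02 to 0.15 on the log2 scale, and that of the brightest 1% (274 probes, those of *MYLPF* and *MYL6* among them) from 0.11 to 1.20. The numbers of probes called higher and lower over the whole array were 5703 and 1585 without lowess, against 3071 and 3186 with it. *MYLPF* then had a log2 ratio of 0.37 ± 0.15 (SD, *n* 4), which is 0.22 above the median of all tested probes, and was called higher. *MYL6* had 1.15 ± 0.31 (SD, *n* 4), or 1.00 above that median, and was called higher too. Both lay below the 1.20 of the brightest 1%, *MYLPF* by far and *MYL6* slightly. With normexp and loess the brightest 1% had a median of 0.41, beside -0.44 for *MYLPF* and 0.34 for *MYL6*. *MYL3*, *MYL2*, *MYL1* and *MYL6B* were still called lower, at -0.82, -0.30, -0.27 and -0.29, while *MYL4*, at -0.18, was not.

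The gap between *MYLPF* and *MYL6*, both very bright, was -0.80 ± 0.17 (SD, *n* 4) with lowess. It was -0.78 ± 0.16 with normexp background correction and loess, and -0.78 ± 0.17 without lowess. The 3 normalisations shift probes of like brightness by a like amount, so these gaps had to be alike and their likeness is no further evidence. Such a gap within an array shows that the ratios of the 2 genes differed, not which of them changed. The gap between the muscle and the non-muscle medians was -0.62 ± 0.08 with normexp and loess and -0.49 ± 0.04 without lowess. With normexp and loess, the 5 striated muscle genes and *MYL6B* were called lower, as was *MYL12A* (-0.27), and *MYL6* was called higher (0.34).

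**Figure D3:**
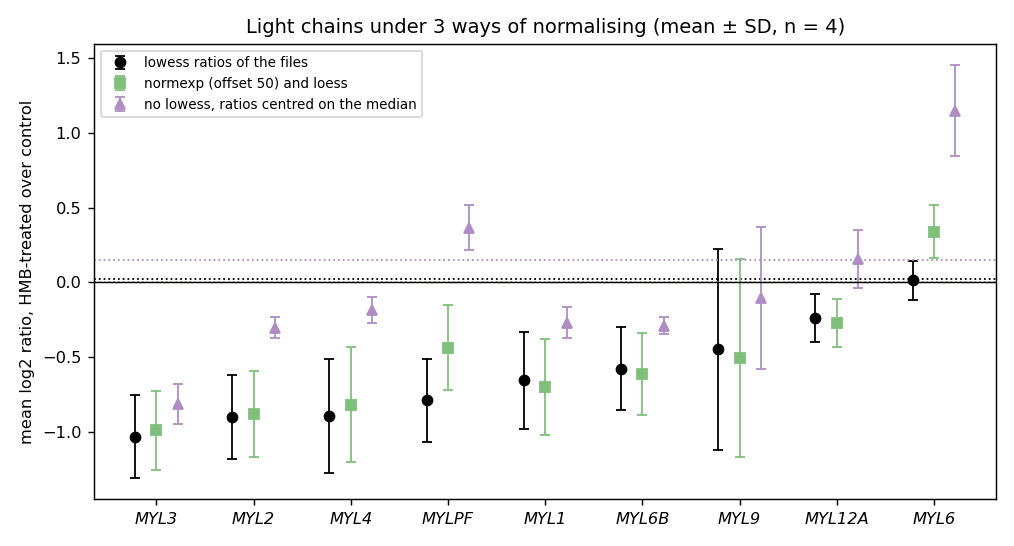
Mean log2 ratio ± SD (*n* 4) of each tested light chain gene from the lowess ratios of the files (circles), after normexp correction and loess (squares) and with median centring in place of lowess (triangles). Dotted lines mark the median of all tested probes under each; *MYLPF* moves from -0.79 to 0.37 and *MYL6* from 0.01 to 1.15, while *MYL3* stays between -1.03 and -0.82.

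Myosin heavy chains carry the motor and bind the light chains. Of 9 sarcomeric heavy chain genes, 7 were on the array under these symbols, 4 were tested. The 3 with both channels well above background on every array were called lower, with a median of -1.15 beside 0.02 for all tested probes. The share called lower over all tested probes was 11.6%. *MYH2* (fast, type IIA) entered the test through its control channel alone, with the HMB channel well above background on 2 of 4 arrays, so the size of its ratio is uncertain: -1.96 with lowess, -0.72 with normexp and loess and -0.85 without lowess. *MYH8* (perinatal) had -1.93 ± 0.36 (SD, *n* 4; limma, adjusted *P* 0.00113), *MYH7* (slow) -1.15 ± 0.30 (limma, adjusted *P* 0.0028) and *MYH3* (embryonic) -1.11 ± 0.47 (limma, adjusted *P* 0.00846). Without lowess *MYH8* and *MYH7* were called lower and *MYH3* (-0.21) was not, and the median of these 3 genes was -0.38. The share called lower over all tested probes was then 5.79%. *MYH1*, *MYH4* and *MYH13* were too close to background to be tested. Of the smooth and non-muscle heavy chains, *MYH11*, of smooth muscle, was called lower but entered the test through its control channel alone, as the HMB channel was not well above background on array 4. Its ratio was -1.18 ± 0.86 (SD, *n* 4) with lowess, with -2.45 on array 4, and -0.45 with normexp and loess and -0.55 without lowess. The non-muscle *MYH9* and *MYH10* had -0.01 ± 0.30 and -0.13 ± 0.50 with lowess, or 0.17 and 0.00 without it, and did not pass the threshold in either.

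All 5 tested troponin genes, whose products make the thin filament respond to calcium, were called lower, with a median of -0.88. Without lowess all 5 were also called lower, with a median of -0.50. Over all tested probes, 11.6% were called lower with lowess and 5.79% without it. *TNNC2* had -1.15 ± 0.27 (SD, *n* 4; limma, adjusted *P* 0.00211) and *TNNC1* -0.98 ± 0.34 (limma, adjusted *P* 0.00578). Of 4 genes for proteins that fold or assemble myosin, 3 had both channels well above background on every array. With lowess 2 of these were called lower, at a median of -0.31, and without lowess 1, at a median of 0.05. The shares called lower over all tested probes were again 11.6% and 5.79%. *UNC45B*, the muscle form of this chaperone, had -0.62 ± 0.29 (SD, *n* 4; limma, adjusted *P* 0.0144), and the general form *UNC45A* had -0.03 ± 0.21, or 0.16 without lowess, and did not pass. *SMYD1* entered the test through its control channel alone, with the HMB channel not well above background on array 4, where the ratio was -1.83. Its mean was -0.87 ± 0.64 (SD, *n* 4) with lowess, -0.41 with normexp and loess and -0.46 without lowess. *HSP90AA1*, at -0.31, was called lower with lowess but had 0.05 without it. Of the myosin-binding proteins only *MYBPH* was tested, and it did not pass, at -0.40 ± 0.54.

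Genes that act on the phosphorylation of regulatory light chains were called in both directions. Of 21 genes, 15 were tested and 14 had both channels well above background on every array. Of these 14, 3 were called lower and 1 higher, with a median of -0.03, beside 11.6% lower and 11.2% higher over all tested probes. Without lowess 1 was lower and 3 higher, with a median of 0.11, beside 5.79% and 20.8% over all tested probes. *MYLK*, the smooth muscle and non-muscle light chain kinase, was lowest at -0.96 ± 0.36 (SD, *n* 4; limma, adjusted *P* 0.00697), or 1.95-fold lower, and had -0.69 without lowess. *PPP1R12B*, a targeting subunit of myosin phosphatase, entered the test through its control channel alone, with the HMB channel well above background on 2 of 4 arrays, and its -0.62 with lowess became -0.16 with normexp and loess, where it was not called. *CIT*, a kinase of the cytokinetic ring, was higher at 0.56 ± 0.31 (limma, adjusted *P* 0.0219), as were all 4 of its probes. *DAPK3* was lower at -0.47 ± 0.30 (SD, *n* 4; limma, adjusted *P* 0.0350) but was not called without lowess (-0.28). The 10 tested genes that did not pass, *ROCK1*, *ROCK2* and *RHOA* among them, had means from -0.19 to 0.18, but without lowess *RHOA* (0.42) and *PPP1R14B* (0.65) were called higher. The skeletal muscle kinase *MYLK2* was not well above background on enough arrays to be tested, nor were *MYL7* and *MYL10*, the other light chain genes with a probe.

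**Figure D4:**
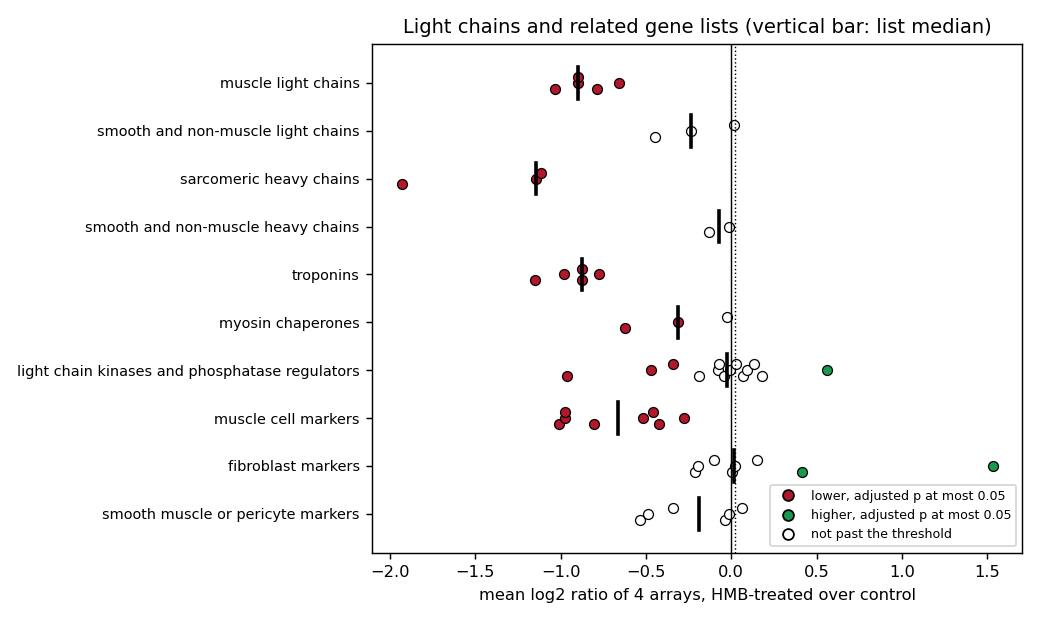
Mean log2 ratio over 4 arrays of each gene in 10 lists with both channels well above background on every array, coloured by call at an adjusted *P* of 0.05, with a bar at the median of each list and a dotted line at the median of all tested probes. Striated muscle light chains (median -0.90, or -0.27 without lowess), sarcomeric heavy chains (-1.15, or -0.38), troponins (-0.88, or -0.50) and muscle cell markers (-0.66, or -0.29) lie left of 0, and fibroblast markers (0.01, or 0.82) lie around it.

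General markers of muscle cells moved with the striated muscle light chains. Of 12 such genes, 8 were matched to a probe and tested. All 8 were called lower by their brightest tested probe, beside 11.6% of all tested probes. Their median was -0.66, with medians of -0.34, -0.70, -0.79 and -1.05 on arrays 1 to 4. Of the 2 tested probes of *MYOD1*, 1 was called lower. *MYF5* had -1.01 ± 0.18, *ACTA1* -0.98 ± 0.38 and *DES* -0.98 ± 0.37 (SD, *n* 4). Without lowess all 8 kept a negative ratio at a median of -0.29, and 4 were called lower, beside 5.79% of all tested probes. Those called included *MYF5* (-0.76) and *DES* (-0.46), while *ACTA1* (-0.22) was not called. The summed processed signal of these markers, in which *ACTA1* was the brightest probe, was 92083 to 96663 in control cells and 39551 to 69391 in HMB-treated cells. In RNA from a whole culture, fewer differentiated muscle cells and less of these mRNA per cell cannot be told apart. *PAX7*, *MYMK*, *CDH15* and *TTN* were not matched to a probe here.

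Of 10 fibroblast markers, 8 were tested, 2 were called higher and 0 lower with lowess, at a median of 0.01, beside 11.2% called higher over all tested probes. With normexp and loess 3 were called higher, at a median of 0.13, beside 10.0%, and without lowess 6, at a median of 0.82, beside 20.8%. *PDGFRA* was higher at 1.53 ± 0.47 (SD, *n* 4; limma, adjusted *P* 0.00358), or 0.89 with normexp and loess and 0.93 without lowess. *FAP* was higher at 0.42 ± 0.18 (SD, *n* 4; limma, adjusted *P* 0.0185), or 0.72 without lowess. *COL1A2*, the brightest of the list, had -0.20 ± 0.28 and did not pass by that probe with lowess. Without lowess it had 1.02 and was called higher, but the brightest 1% of tested probes then had a median of 1.20. With lowess, 2 of 9 tested probes of *COL1A2* were called lower, and 1 of 2 of *DCN* was called higher. The summed signal of the list was 306171 to 429606 in control cells and 284618 to 393082 in HMB-treated cells, and *TCF21* was not well above background on enough arrays to be tested. Of the smooth muscle and pericyte markers, 7 were tested, and the 6 other than *MYH11* did not pass with lowess (median -0.19) or without it (median 0.05). The list had a summed signal, brightest for *TAGLN*, of 53100 to 62054 in control and 29248 to 55675 in HMB-treated cells. All 5 endothelial markers were too close to background to be tested, with a summed signal of 24.9 to 47.7 in control and 35.1 to 39.5 in HMB-treated cells. The leukocyte markers *CD14* and *CD68* did not pass with lowess, *CD14* (0.30) was called higher without it, *CD3E* and *ITGAM* were too close to background, and the summed signal, mostly of *CD14*, was 4846 to 5647 in control and 4842 to 6351 in HMB-treated cells. The part of these cell types in the light chain ratios was not tested.

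Likeness to the striated muscle light chains was measured as the root mean square difference, over 4 arrays, from their median log2 ratio. Among 9229 genes with both channels well above background, the closest was *NRAP*, which encodes a protein of developing myofibrils, with a difference of 0.061 and ratios of -0.47, -0.88, -0.95 and -1.11. It was followed by *TNNI2*, the fast troponin I, at 0.064 and *NCAM1*, a cell adhesion molecule of myoblasts, at 0.080. *SHF* and *MHCB3* came next at 0.087 for each. Among the 5 light chain genes themselves, this difference ran from 0.054 for *MYL4* to 0.23 for *MYL1*. All of the outside genes named here lay nearer to the shared pattern than *MYLPF* (0.096), *MYL3* (0.17) and *MYL1* did. The measure is a description and has no test.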

How the data were processed

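Members and lists were chosen with earlier results of these data known. RNA of HMB-treated (Cy5) and control (Cy3) ESC was compared on 4 arrays of 1 slide. The authors scanned the arrays with Feature Extraction (10.10.1.1 per the file headers) and deposited spot intensity values (mean, local background and processed) and log10 ratios after linear and lowess dye normalisation. The value table that the authors deposited holds the same log10 values, each column with a median of 0. Marks for background, outliers and saturation were used as given. Positions are on EquCab1, and gene numbers and accessions were paired with symbols through the RefSeq table of the TB-T2T assembly.

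Ratios were multiplied by 3.32 to log2. Control spots (1417 per array) and spots marked non-uniform or outlying were dropped before spots of the same probe were averaged. A probe entered the test if one channel, control or HMB, stood well above background on every one of the 4 arrays and 3 or more ratios remained. This gave 27384 probes and left out 16219. Symbols came from the files for 24962 probes, gene numbers for 1684, accessions for 436 and descriptions for 2, with 16519 unnamed. For a gene with several tested probes, that with the highest mean intensity was taken. Genes named are those of the lists, with called genes first. Mean ratios were tested against 0, two-sided, by an intercept model with moderated variances (limma 3.58.1, R 4.3.3) and adjusted after Benjamini and Hochberg across the probes tested, at 0.05. Alternatives were normexp (offset 50) with loess, no lowess, a t-test of each probe on its own ratios (the study's methods name no test), separate channels without pairing, no filter, both channels above background, the value table, each array left out, the mean of all probes of a gene, and other memberships. Members were at first to be matched by annotated symbol alone, and matching by gene number and description, which added *MYLPF*, *MYL9* and *MYL12A*, was chosen after seeing the data. Python 3.11.15, pandas 2.3.3 and matplotlib 3.10.9 were used.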

Additional observations from a re-analysis of the deposited data

Results flagged for a closer look

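In 6 of 67 genes or medians examined, 1 array stood apart from the other 3 by Dixon's ratio of gap to range, past its 95% critical value, and chance alone gives about 1 in 20. No light chain gene was among them. The ratio was 0.945 for *CIT* (a log2 ratio of 1.02 against a next value of 0.43), 0.921 for *SMYD1* (-1.83 against -0.61) and 0.884 for *ACTA2* (-1.34 against -0.32). It was 0.891 for *MYH7* (-0.70 against -1.25), 0.875 for *DAPK3* (-0.02 against -0.58) and 0.875 for *MYH9* (0.44 against -0.13).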

How the results depend on the processing

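The 6 light chain genes called lower had a negative log2 ratio under every alternative run except *MYLPF* without lowess. Without lowess, *MYLPF* had 0.37, *MYL4* -0.18 (not called), *MYL12A* 0.15 and *MYL6* 1.15 (called higher), the muscle median was -0.27 and the non-muscle median 0.15, and 2 members were called higher; over all probes 5703 were higher and 1585 lower. With normexp and loess, *MYL6* (0.34) was called higher, the 1 member so called, and *MYL12A* (-0.27) lower. The t-test of each probe on its own ratios called 0 members lower after adjustment. At an unadjusted *P* of 0.05 it had 6 lower, with no share over all probes to set beside this. After adjustment, *MYL1* (-0.66), *MYL2* (-0.90), *MYL3* (-1.03), *MYL4* (-0.90), *MYL6B* (-0.58) and *MYLPF* (-0.79) thus kept their ratios without a call. Over all probes the t-test called 346 higher and 422 lower. With no filter on dim probes, 2 members were called lower, and *MYL1* (-0.66), *MYL4* (-0.90), *MYL6B* (-0.58) and *MYLPF* (-0.79) were not; 1591 probes were higher and 2099 lower. With separate channels and no pairing (no replicate block), *MYL1* (-0.66) was not called, and 666 probes were higher and 1560 lower. Leaving out each array in turn gave 936 to 2265 probes higher and 1522 to 2692 lower, with 4 to 6 members lower; the counts moved most without array 2 (936 higher, 1637 lower) and array 3 (1183 and 1522). *MYL1* then ran from -0.79 to -0.53 and lost its call without array 3 (-0.63). *MYL6B* ran from -0.70 to -0.48 and lost its call without array 2 (-0.59) or 3 (-0.54), and *MYL6*, called under none of these 4, ran from -0.0262 to 0.0673. Members were to be matched by symbol alone, and the wider match was chosen after seeing the data; by symbol alone *MYLPF*, *MYL9* and *MYL12A* drop out and the non-muscle median is that of *MYL6*, 0.0140. The cause of these changes was not tested. The 4 arrays of 1 dye orientation, with median raw signals of 3.16 to 5.85 times background, limit what can be called.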
